A study of Mus musculus with 22 samples.

Results

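The genes described here encode the SR proteins, a family of splicing factors named for a tail rich in serine and arginine. They were chosen by gene symbol, as the rows for Srsf1, Srsf2, Srsf3, Srsf4, Srsf5, Srsf6, Srsf7, Srsf9, Srsf10 and Srsf11 among the deposited scores. Of these 10 genes, 9 were analysed among the 15705 genes scored in 6-month-old mice, and all 10 among the 15192 genes scored in 12-month-old mice. Srsf2 was analysed at 12 months only.

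The study measured poly(A) RNA from mouse cortex by stranded RNA sequencing in 22 libraries. The 6-month libraries came from littermates of crosses between mice with 1 copy of N40K-Tg and mice with 1 copy of FAD, in 4 groups of 3. The dTg mice carried both transgene sets, the N40K mice carried N40K-Tg without FAD, the 5xFAD mice carried FAD without N40K-Tg, and the wild-type (WT) mice carried neither. N40K is an N-terminal piece of U1-70K, which is a component of U1 snRNP, the small nuclear ribonucleoprotein that recognises 5′ splice sites. The 5xFAD transgenes include mutant human APP, driven in neurons by the Thy1 promoter, and 5xFAD mice form amyloid deposits. The 12-month libraries came from 6 Tau P301S mice (transgenic for human tau with the P301S change) and 4 WT mice, all from crosses of Tau P301S carriers with WT. The promoters of the N40K and tau transgenes are not given in the sources used here. Each library is taken to be a separate animal because the labels number them as replicates. If they were not separate animals, the p-values measure only the spread between libraries.

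SR proteins bind short sequences in exons through RNA recognition motifs, and their serine- and arginine-rich tails recruit the splicing machinery. SRSF1 helps U1 snRNP settle on 5′ splice sites through contact with U1-70K, the protein of which N40K is a piece. SR protein genes are known for controlling their own output: an excess of the protein favours transcripts that keep an intron or include an exon with an early stop codon, and these are held in the nucleus or destroyed by nonsense-mediated decay.

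What was deposited for each gene and library is an Sd score. It is read here as a score of splicing deficiency, a ratio that is higher where more of the signal is unspliced. It gives 1 value per gene, so it does not say which intron carried the signal, and it is no measure of how much of the transcript or protein was present. Scores were listed in steps of 0.001. No counting interval is given, because the read depth of the libraries is not given in the sources used here.

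The 5′ splice sites that lie unspliced within annotated SR protein transcripts are shown first, because U1 snRNP pairs with these bases. They were read from exons of GENCODE M21 transcripts (build GRCm38) of the retained-intron class. Of the sites printed, those of Srsf11 and Srsf1 come from transcripts that hold the start of the intron but not the whole of it, and the others from transcripts that hold the whole intron. Each sequence holds the last 3 bases of the exon and the first 6 of the intron, 5′ to 3′. Capitals mark the bases equal to CAGGTAAGT, the complement of bases 3 to 11 of U1 RNA (ACTTACCTG in the mouse gene Rnu1b1, chromosome 3). Both sites found for Srsf11 and the site found for Srsf1 are given, since the results below turn on these genes, with 1 site each for the other members that had any. For Srsf3, Srsf5 and Srsf7, which had several, the printed site has the most or joint most capitals. Their sites not printed matched at 6 or 7 bases, so the printed sites do not compare these genes evenly with Srsf11.
Srsf11 intron 2 (chromosome 3, minus strand): ggaGTgAGT
Srsf11 intron 3 (chromosome 3, minus strand): aAGGTttGT
Srsf1 intron 2 (chromosome 11, plus strand): CtGGTgAGT
Srsf2 intron 2 (chromosome 11, minus strand): atGGTAAtg
Srsf3 intron 4 (chromosome 17, plus strand): CAGGTAAaT
Srsf5 intron 5 (chromosome 12, plus strand): CAGGTttGT
Srsf6 intron 2 (chromosome 2, plus strand): gcaGTgAGT
Srsf7 intron 3 (chromosome 17, minus strand): CAGGTAttT

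Srsf11 intron 2, Srsf6 intron 2 and Srsf2 intron 2 matched the U1 complement at 5 of 9 bases, and Srsf3 intron 4 matched at 8. Over the 14 such sites in 7 members, the median was 6 matches, as it was over 15688 sites in 6930 protein-coding genes of the 6-month scores. At least 7 matches were found at 6 member sites (42.9%) and at 39.5% of all sites. A full match was found at no member site and at 0.829% of all sites. By these counts the member sites lay near the middle of all such sites in their match to U1.

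The annotation also lists which classes of transcript the SR protein genes can make. A retained-intron transcript was annotated for 8 of the 10 members, against 58.8% of 13702 protein-coding genes scored at 6 months. A transcript marked for nonsense-mediated decay was annotated for 9 members, against 28.9%, and both classes for 8 members, against 22.2%. Srsf11 had the most transcripts of the members, 19, of which 11 were of the retained-intron class. Srsf9 had no retained-intron transcript and Srsf10 had a transcript of neither class. Total intron length ran from 1021 bases in Srsf1 to 25833 in Srsf4, and Srsf11, with 23061, was next to the longest. A transcript of the retained-intron class need not hold a whole intron. These annotations describe the genes and were not measured in the mice.

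Across the whole 6-month set, the median score of a library was highest in N40K replicate 1 (0.036) and dTg replicate 2 (0.035), and ran from 0.029 to 0.033 in the other 10 libraries. At 12 months the library medians ran from 0.013 to 0.017. The score is not a level of expression, so neither the transgenes nor cell type markers could be checked by level. Rows were listed at 6 months for 7 of 7 neuronal, 5 of 5 astrocyte, 3 of 5 microglial, 3 of 5 oligodendrocyte and 3 of 5 endothelial markers, and at 12 months for all of these markers except Cldn5.

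SR protein genes held a wide range of scores within the same WT cortex. At 6 months Srsf6, which takes part in the choice of tau exons, was highest at 0.421 ± 0.0227 (SD, n = 3 WT libraries), above 93.7% of all genes. Srsf1 followed at 0.187 ± 0.011 and Srsf10, a family member that represses splicing when it is dephosphorylated, at 0.179 ± 0.0216. Srsf1 and Srsf10 did not differ beyond their spread. Srsf7, which like Srsf3 also helps export mRNA, had 0.139 ± 0.00889, and Srsf9 had 0.116 ± 0.003. Lower in the order stood Srsf3 at 0.0493 ± 0.000577, Srsf4 at 0.0433 ± 0.00208 and Srsf11 at 0.0307 ± 0.00208, the last of these near the middle of all genes (percentile 50.8). Srsf5 was lowest at 0.00767 ± 0.00153 (percentile 19.7), where 1 step of the scale is a large part of the value.

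Srsf11 and Srsf1 had higher scores in the N40K carriers (N40K and dTg libraries together, 6) than in the non-carriers (5xFAD and WT libraries together, 6) and passed the test across all genes. The rise was 1.31-fold for Srsf11 and 1.25-fold for Srsf1, on scores to which 0.002 was added. Over all genes, 11.7% passed in either direction in this comparison, with 10.8% higher and 0.936% lower, and the 2 of 9 members called are to be read against that background. The background itself varied when 1 library was left out. The 1691 genes called higher were 876 without WT replicate 1, 734 without WT replicate 2 and 960 without N40K replicate 1. They were 1085 without 5xFAD replicate 1, 754 without 5xFAD replicate 3 and 879 without dTg replicate 2. They were at most 2221, without dTg replicate 1. In the cases not listed they ran from 1257, without 5xFAD replicate 2, to 1781, without N40K replicate 2. The other 7 members did not pass, and none was called lower. In whole cortex, a change within cells and a change in which cells supplied the RNA (fewer cells of a type or less RNA per cell) cannot be told apart.

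Srsf11 encodes a nuclear SR protein of the spliceosome. Its score was 0.038, 0.048 and 0.039 in the dTg libraries and 0.044, 0.039 and 0.037 in the N40K libraries, against 0.029, 0.03 and 0.032 in 5xFAD and 0.029, 0.03 and 0.033 in WT libraries. All 6 carriers were above all 6 non-carriers. The mean was 0.0408 ± 0.00426 in carriers and 0.0305 ± 0.00164 in non-carriers (SD, n = 6 each). The log2 change was 0.39 (SE 0.0683, 95% interval 0.24 to 0.55, adjusted p = 0.0128 by limma). Libraries separated in this way, with carriers higher, were seen in 5.11% of all genes. The call was kept with any 1 of the 12 libraries left out, with a log2 change from 0.343 to 0.424 and an adjusted p of at most 0.0372, reached without WT replicate 2.

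Srsf1 encodes an SR protein that contacts U1-70K. Its score was 0.257, 0.275 and 0.224 in dTg and 0.268, 0.247 and 0.231 in N40K libraries, against 0.213, 0.188 and 0.238 in 5xFAD and 0.183, 0.178 and 0.199 in WT libraries. Carriers were above every WT library, but 5xFAD replicate 3 (0.238) lay above the lowest carriers, so the groups overlapped. The mean was 0.25 ± 0.0202 in carriers and 0.2 ± 0.0225 in non-carriers (SD, n = 6 each), a log2 change of 0.33 (SE 0.0735, 95% interval 0.16 to 0.49, adjusted p = 0.0251). This call was lost with 1 library left out in 5 of 12 cases. Its adjusted p was then 0.0561 without WT replicate 1, 0.0633 without WT replicate 2, 0.0575 without N40K replicate 1, 0.0509 without 5xFAD replicate 1 and 0.0589 without dTg replicate 2.

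**Figure D1:**
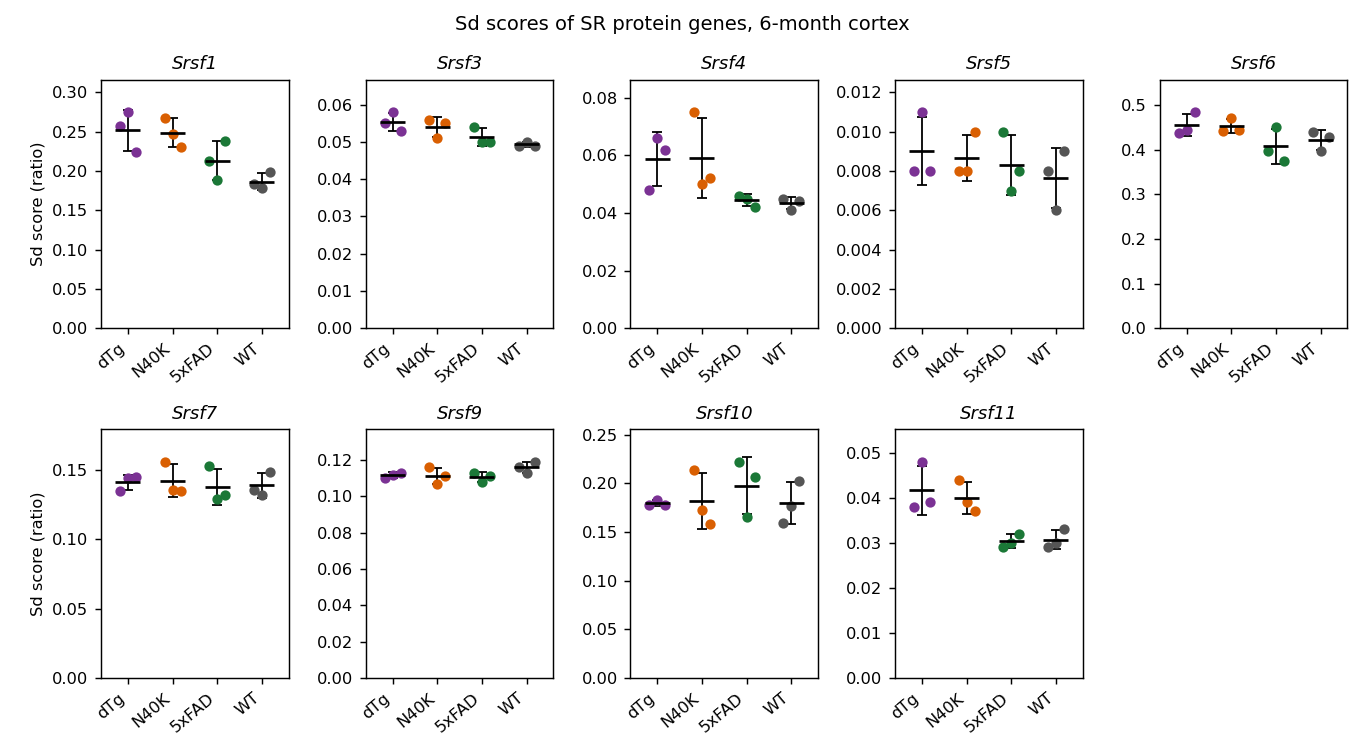
Sd score (ratio, vertical axis from 0) of each SR protein gene in the 12 cortex libraries at 6 months; points are libraries, the bar is the group mean and the whisker is 1 SD (n = 3). In Srsf11 and Srsf4 all dTg and N40K points lie above all 5xFAD and WT points, while in Srsf9 and Srsf10 the 4 groups lie over each other.

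Srsf4 and Srsf3 were higher in carriers by value and did not pass. Srsf4, among the longest SR proteins, scored 0.048, 0.066 and 0.062 in dTg and 0.075, 0.05 and 0.052 in N40K libraries, against 0.046, 0.045 and 0.042 in 5xFAD and 0.045, 0.041 and 0.044 in WT libraries. The 6 carriers were again above all non-carriers, though dTg replicate 1 was only 0.002 above the highest of them. The log2 change was 0.39 (SE 0.11), as large as that of Srsf11, with a wider spread and an adjusted p of 0.0501. Leaving out N40K replicate 2 (adjusted p = 0.0399) or dTg replicate 1 (0.0255) took it past the threshold.

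Srsf3, the shortest SR protein here and a factor in mRNA export, scored 0.055, 0.058 and 0.053 in dTg and 0.056, 0.051 and 0.055 in N40K libraries, against 0.054, 0.05 and 0.05 in 5xFAD and 0.049, 0.05 and 0.049 in WT libraries. The carriers were above all WT libraries and overlapped with 5xFAD replicate 1. The log2 change was 0.11 (SE 0.0365, adjusted p = 0.0733), and it passed without N40K replicate 2 (adjusted p = 0.0441).

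The remaining 5 members at 6 months did not pass, with log2 changes no larger than 0.13. Srsf6 had 0.454 ± 0.0188 in carriers and 0.414 ± 0.0297 in non-carriers (log2 change 0.13, adjusted p = 0.136). Srsf5 had 0.00883 ± 0.00133 and 0.008 ± 0.00141 (0.12, adjusted p = 0.531), and Srsf7 0.142 ± 0.00828 and 0.138 ± 0.01 (0.03, adjusted p = 0.745), in carriers and non-carriers in that order. Srsf9 and Srsf10 had changes below 0, of −0.02 (adjusted p = 0.65) and −0.06 (adjusted p = 0.758). For Srsf9 the 95% interval ran from −0.09 to 0.04, narrow enough to leave out a change of the size seen in Srsf11, and its score varied least of all members, with 0.107 to 0.116 in carriers and 0.108 to 0.119 in non-carriers. For Srsf10 the interval was −0.28 to 0.17.

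Set against the whole 6-month set, 7 of 9 members had a change above 0 (71.98% of all genes did) and 6 of 9 exceeded the median change of all genes, 0.09 on the log2 scale. The median change of the members was 0.12. An unadjusted p under 0.05 was reached by 5 of 9 members and by 29.07% of all genes. Relative to the median change of all genes, Srsf11 and Srsf4 stood 0.3 higher and Srsf1 0.23 higher. The changes of Srsf3, Srsf5 and Srsf6 stood within 0.04 of that median, and those of Srsf7, Srsf9 and Srsf10 were lower than it by 0.06, 0.12 and 0.15.

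The library median moved with several of these scores. Across the 12 libraries, as a description in which a gene and the median come from the same library, Pearson's r of the log2 score with the library median was 0.972 for Srsf4, 0.842 for Srsf11, 0.808 for Srsf3 and 0.691 for Srsf1, against 0.114 for Srsf9. When each library was centred on its own median log2 score, the change of Srsf11 was 0.26 (adjusted p = 0.0266), that of Srsf4 was 0.26 (0.0592) and that of Srsf1 was 0.19 (0.133), so that Srsf11 passed and Srsf1 did not. The changes of Srsf3, Srsf5, Srsf6 and Srsf7 turned to −0.02, −0.02, −0.0035 and −0.100 under this centring. Those of Srsf9 and Srsf10 were then −0.16 (adjusted p = 0.0651) and −0.19 (0.164). With N40K replicate 1 and dTg replicate 2 both left out, the change was 0.31 for Srsf11 (adjusted p = 0.0139), 0.27 for Srsf1 (0.108), 0.26 for Srsf4 (0.1) and −0.0054 for Srsf7.

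**Figure D2:**
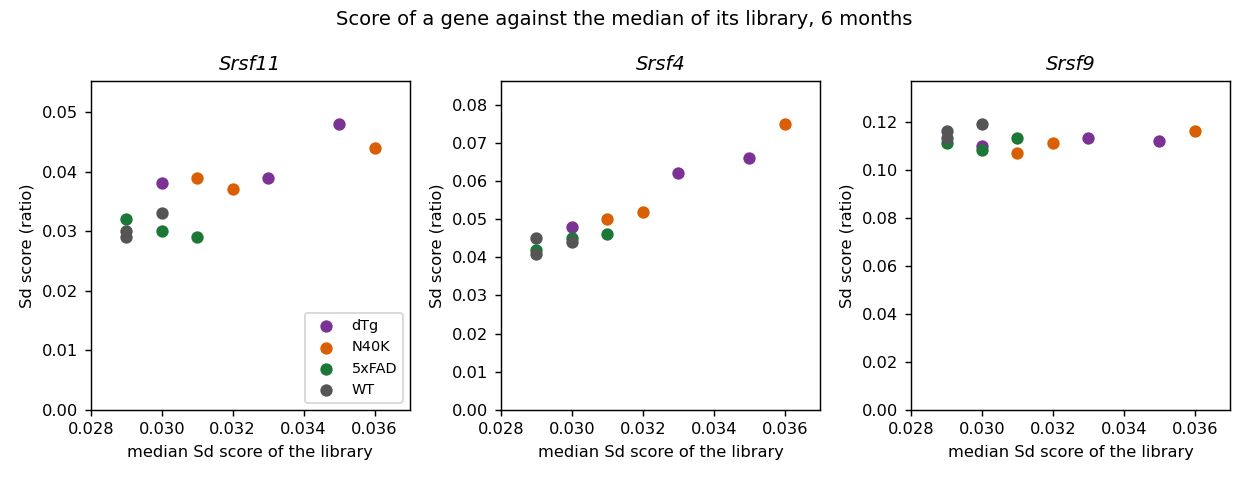
Sd score (ratio, vertical axis from 0) of Srsf11, Srsf4 and Srsf9 against the median Sd score of all genes in the same library (horizontal axis); each point is 1 of 12 libraries at 6 months, coloured by group. Srsf4 follows the library median closely, and Srsf9 is level. At a median of 0.03, Srsf11 is 0.038 in dTg replicate 1, against 0.03 in 5xFAD replicate 2 and 0.033 in WT replicate 3. Srsf4 is 0.048, 0.045 and 0.044 in the same libraries, so both genes are higher in the carrier there.

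In dTg or N40K mice against WT, Srsf1, Srsf4 and Srsf11 had the largest changes of the members, and none passed with 3 libraries a group. The dTg mice differ from WT by both transgene sets, so their changes are not those of N40K alone. In dTg against WT mice 1.57% of all genes passed and none of the 9 members. The 221 genes called higher there were 27, 26 and 51 without WT replicate 1, 2 or 3, 96 and 82 without 5xFAD replicate 1 or 3, 104 without N40K replicate 3, 51 without dTg replicate 2 and 659 without N40K replicate 1. Srsf11 was 1.33-fold (log2 change 0.41, SE 0.0966, adjusted p = 0.0594), Srsf1 1.34-fold (0.43, SE 0.104, 0.0623), Srsf4 1.33-fold (0.41, SE 0.156, 0.166) and Srsf3 1.12-fold (0.16, SE 0.0516, 0.12). All 3 dTg libraries were above all 3 WT libraries in each of these 4 genes. The share of all genes separated in this way was not counted, so no weight is placed on the separation. A change above 0 was seen in 69.69% of all genes. The other 5 members had changes from −0.05 in Srsf9 to 0.19 in Srsf5. In N40K against WT mice 0.178% of all genes passed and no member, with Srsf1 at 0.41 (adjusted p = 0.0933), Srsf4 at 0.41 (0.204), Srsf11 at 0.36 (0.101) and Srsf3 at 0.12 (0.234), and the other 5 members between −0.06 in Srsf9 and 0.15 in Srsf5. The change of Srsf4 was 0.23 without N40K replicate 1. Of all genes, 24 were called higher in N40K than in WT mice, and 490 without dTg replicate 2 or 16 without N40K replicate 1 or WT replicate 1. At an unadjusted p under 0.05 the count of members was 4 of 9 in each of these comparisons (22.5% of all genes in dTg against WT and 18.89% in N40K against WT). The WT libraries serve in both. Srsf11 crossed the threshold against WT in N40K mice without dTg replicate 2 (adjusted p = 0.0419), which enters through the shared estimate of spread, and in dTg mice without N40K replicate 1 (0.0443).

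On the 5xFAD background, dTg against 5xFAD mice, 0.312% of all genes passed and no member, with 3 of 9 members at an unadjusted p under 0.05 (18.05% of all genes). Srsf11 had a change of 0.43 (adjusted p = 0.0939) and Srsf4 of 0.38 (0.243), each with all 3 dTg libraries above all 3 5xFAD libraries. The share of all genes separated in this way was not counted here either, and 68.56% of all genes had a change above 0. Srsf1 had a change of 0.24 (0.265; 0.16 without 5xFAD replicate 2) and Srsf3 of 0.1 (0.317), each with overlap. The other 5 members lay between −0.13 in Srsf10 and 0.16 in Srsf6. Of all genes, 44 were called higher, with 277 without N40K replicate 1, 76 without dTg replicate 1, 15, 17 and 18 without WT replicate 1, 2 or 3, and 18, 29 and 17 without 5xFAD replicate 1, 2 or 3. Between dTg and N40K mice 0.0191% of all genes passed and no member at either p, and the 9 changes lay between −0.01 and 0.05.

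The 5xFAD transgenes by themselves showed no called difference in SR protein scores. Against WT, 0.0191% of all genes passed and no member, adjusted or not, and the changes ran from −0.07 in Srsf9 to 0.18 in Srsf1. The 95% interval for Srsf1 was −0.05 to 0.42, which still holds a change as large as that of the N40K carriers. Averaged over N40K status, 0.0446% of all genes passed and no member at either p, with changes from −0.03 in Srsf9 to 0.1 in Srsf1. The interaction of both transgenes, which asks whether the N40K change differed with 5xFAD, was passed by 0.0191% of all genes and by no member at either p. Its value was −0.17 for Srsf1 (95% interval −0.5 to 0.16) and 0.07 for Srsf11 (−0.24 to 0.37), and it lay between −0.14 in Srsf10 and 0.07 in Srsf9 for the other 7 members. The interval of Srsf1 holds a difference as large as its N40K change of 0.33, and that of Srsf11 does not reach its N40K change of 0.39.

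**Figure D3:**
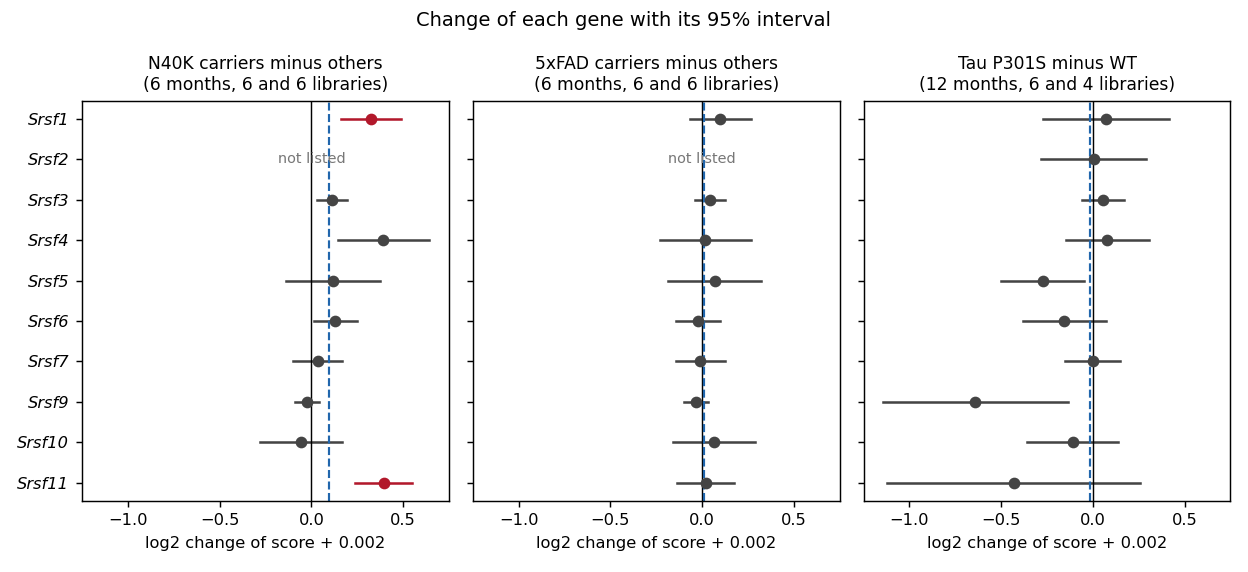
Log2 change of the Sd score plus 0.002 (horizontal axis) for each SR protein gene (vertical axis) with its 95% interval, for N40K carriers minus non-carriers, 5xFAD carriers minus non-carriers and Tau P301S minus WT; the dashed line is the median change of all genes and red marks an adjusted p under 0.05. Srsf1 and Srsf11 are red in the first panel alone, where the intervals of Srsf3, Srsf4 and Srsf6 also lie above 0, and in the third panel the intervals of Srsf5 and Srsf9 lie below 0 without passing after adjustment.

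SR proteins work with a wider set of partners, and among these the SR-related proteins gave the most calls. Of 25 such genes 23 were scored at 6 months, and 9 were higher and none lower in N40K carriers, where 10.8% of all genes were called higher. Their median change was 0.11, against 0.09 for all genes. Luc7l2, which encodes a partner of U1 snRNP, scored 0.067 ± 0.00645 in carriers and 0.0473 ± 0.0048 in non-carriers (SD, n = 6 each, 1.4-fold, adjusted p = 0.0125). Its relative Luc7l3 rose 1.27-fold (0.0125), and Scaf4 and Scaf8, which in human cells bind RNA polymerase II and act on where transcripts end, rose 1.33-fold (0.0182) and 1.23-fold (0.0066). All 6 carriers were above all 6 non-carriers in these 4 genes, as in 5.11% of all genes. The 4 genes were picked by adjusted p in this same comparison, so their separation is no further support. Scaf8 scored only 0.004 to 0.005 in carriers and 0.003 in every non-carrier. Luc7l3 scored only 0.007 to 0.008 in carriers and 0.005 to 0.006 in non-carriers. In both genes 1 step of the scale is a large part of the value. Under median centring Luc7l2 and Scaf4 passed, while Luc7l3 (adjusted p = 0.0564) and Scaf8 (0.0736) did not. The count of 9 was 6 without WT replicate 1, WT replicate 2, 5xFAD replicate 3 or dTg replicate 2.

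Of the 11 kinases that phosphorylate SR proteins, 2 were higher and none lower in carriers (10.8% of all genes were called higher), with a median change of 0.06, under the 0.09 of all genes. Srpk1, which phosphorylates the serine- and arginine-rich tail in the cytoplasm, scored 0.0438 ± 0.00479 in carriers and 0.0317 ± 0.00175 in non-carriers (SD, n = 6 each, 1.36-fold, adjusted p = 0.01). All carriers were above all non-carriers, as in 5.11% of all genes. Srpk1 passed in all 12 cases of 1 library left out. Dyrk1a, which acts on several splicing factors, scored 0.003 to 0.004 in carriers and 0.003 in every non-carrier (adjusted p = 0.039). It stayed past the threshold only without an N40K replicate, and with any WT, 5xFAD or dTg library left out its adjusted p lay between 0.0527 and 0.0821. Under median centring its log2 change was 0.04, against 0.18 without centring, and its adjusted p was 0.617.

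Of 6 phosphatase genes 1 was higher, a share near the 10.8% of all genes. It was Ppp1cc, a catalytic subunit of protein phosphatase 1, with 0.0278 ± 0.00471 in carriers and 0.0195 ± 0.00138 in non-carriers (SD, n = 6 each, 1.38-fold, adjusted p = 0.0243). Its call was lost without WT replicate 1 (0.0516), WT replicate 2 (0.0615), 5xFAD replicate 1 (0.0533), 5xFAD replicate 3 (0.0583) or dTg replicate 2 (0.0598). Of 5 genes for nuclear import and export of SR proteins none passed, with a median change of 0.05. One of these 5 had an unadjusted p under 0.05.

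Of 10 nonsense-mediated decay factors 8 were scored, with a list median of 0.03 and none lower in carriers. Upf2, which encodes a core factor of this decay, was higher (1.12-fold, adjusted p = 0.0256). It scored 0.009 to 0.01 in carriers and 0.007 to 0.009 in non-carriers, so the groups met at 0.009. The call was lost without WT replicate 2 (adjusted p = 0.063), WT replicate 3 (0.0521), N40K replicate 1 (0.0507), 5xFAD replicate 1 (0.0518), 5xFAD replicate 3 (0.0595) or dTg replicate 2 (0.0588), and under median centring its change was 0.03 (0.817). In dTg against WT mice Scaf8 (adjusted p = 0.0328) and Upf2 (0.0305) were the only genes past the threshold over the 5 lists, and in the other comparisons of single groups, the 5xFAD average, the interaction and Tau P301S against WT no listed gene passed.

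The members did not vary as 1 block across the 12 libraries at 6 months. As a description, r of the log2 scores was 0.863 between Srsf1 and Srsf11 and 0.861 between Srsf4 and Srsf11, both pairs with carriers high. It was −0.509 between Srsf6 and Srsf10. Among 7408 genes with a mean score of at least 0.02, the 3 with the pattern most like Srsf11 were Gmcl1 (r = 0.982), Mybpc2 (0.975) and Srpk1 (0.973). For Srsf4 they were Fam193b (0.993), Panx2 (0.984) and Apc2 (0.98), and for Srsf1 they were Ubxn2b (0.947), Vps4b (0.94) and Tmtc3 (0.939). Over the 10 libraries at 12 months, r with Srsf11 was 0.688 for Gmcl1, 0.0279 for Mybpc2 and 0.0736 for Srpk1. There r with Srsf4 was 0.252 for Fam193b, 0.192 for Panx2 and −0.0551 for Apc2. With Srsf1 it was −0.18 for Ubxn2b, 0.385 for Vps4b and 0.228 for Tmtc3.

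At 12 months no SR protein gene passed between Tau P301S and WT mice, where 0.00658% of all genes passed. At an unadjusted p under 0.05 the count was 2 of 10 members, Srsf9 and Srsf5, against 8.281% of all genes, and both had lower scores in Tau P301S mice. In each, all 6 Tau P301S libraries were below all 4 WT libraries, which was so for 0.994% of all genes. The changes of the 10 members had a median of −0.06, against −0.02 for all genes, and 4 of 10 were above 0.

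Srsf9 encodes a small SR protein related to Srsf1. Its scores were 0.155, 0.098, 0.074, 0.165, 0.162 and 0.128 in Tau P301S libraries, against 0.194, 0.182, 0.203 and 0.208 in WT libraries. The Tau P301S values were widely spread and the WT values lay close together. The mean was 0.13 ± 0.0375 (SD, n = 6) in Tau P301S and 0.197 ± 0.0114 (SD, n = 4) in WT mice. The log2 change was −0.64 (SE 0.224, 95% interval −1.15 to −0.14), with an unadjusted p = 0.0183 and an adjusted p = 0.501 by limma. With 1 library left out it ran from −0.72 to −0.493.

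Srsf5, first described as a gene induced in regenerating rat liver, scored 0.132, 0.176, 0.165, 0.173, 0.166 and 0.175 in Tau P301S libraries, against 0.18, 0.191, 0.235 and 0.192 in WT libraries. The highest Tau P301S library (0.176) was just under the lowest WT library (0.18). The mean was 0.164 ± 0.0166 (SD, n = 6) in Tau P301S and 0.2 ± 0.0243 (SD, n = 4) in WT mice. The log2 change was −0.27 (SE 0.101, 95% interval −0.5 to −0.05), with an unadjusted p = 0.0231 and an adjusted p = 0.525. With 1 library left out it ran from −0.321 to −0.194.

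Srsf11 had a lower mean in Tau P301S mice, 0.0395 ± 0.0131 (SD, n = 6), than in WT mice, 0.0543 ± 0.0209 (SD, n = 4), but the libraries ran from 0.021 to 0.055 and from 0.035 to 0.082 in that order and overlapped. Its log2 change was −0.43 with a 95% interval from −1.12 to 0.25 (adjusted p = 0.787), too wide to tell its direction. Srsf1 was 0.147 to 0.217 (median 0.186) in Tau P301S and 0.146 to 0.234 (median 0.167) in WT libraries, a change of 0.07 (95% interval −0.27 to 0.42, adjusted p = 0.939). Neither of the genes that rose with N40K therefore had a called difference with Tau P301S, and the N40K and Tau P301S changes were not tested against each other, being in separately made tables at different ages.

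The other members at 12 months overlapped between the groups and did not pass. Srsf6 was 0.234 to 0.333 (median 0.27) in Tau P301S and 0.3 to 0.323 (median 0.303) in WT libraries, a change of −0.15 (adjusted p = 0.743). Srsf10 had a change of −0.11 (0.834), and Srsf2, a factor that promotes inclusion of tau exon 10, of 0.01 (95% interval −0.28 to 0.29), with 0.139 ± 0.0109 in Tau P301S and 0.14 ± 0.0287 in WT mice. The changes of Srsf3, Srsf4 and Srsf7 were 0.06, 0.08 and −0.0019 (adjusted p from 0.814 to 1).

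**Figure D4:**
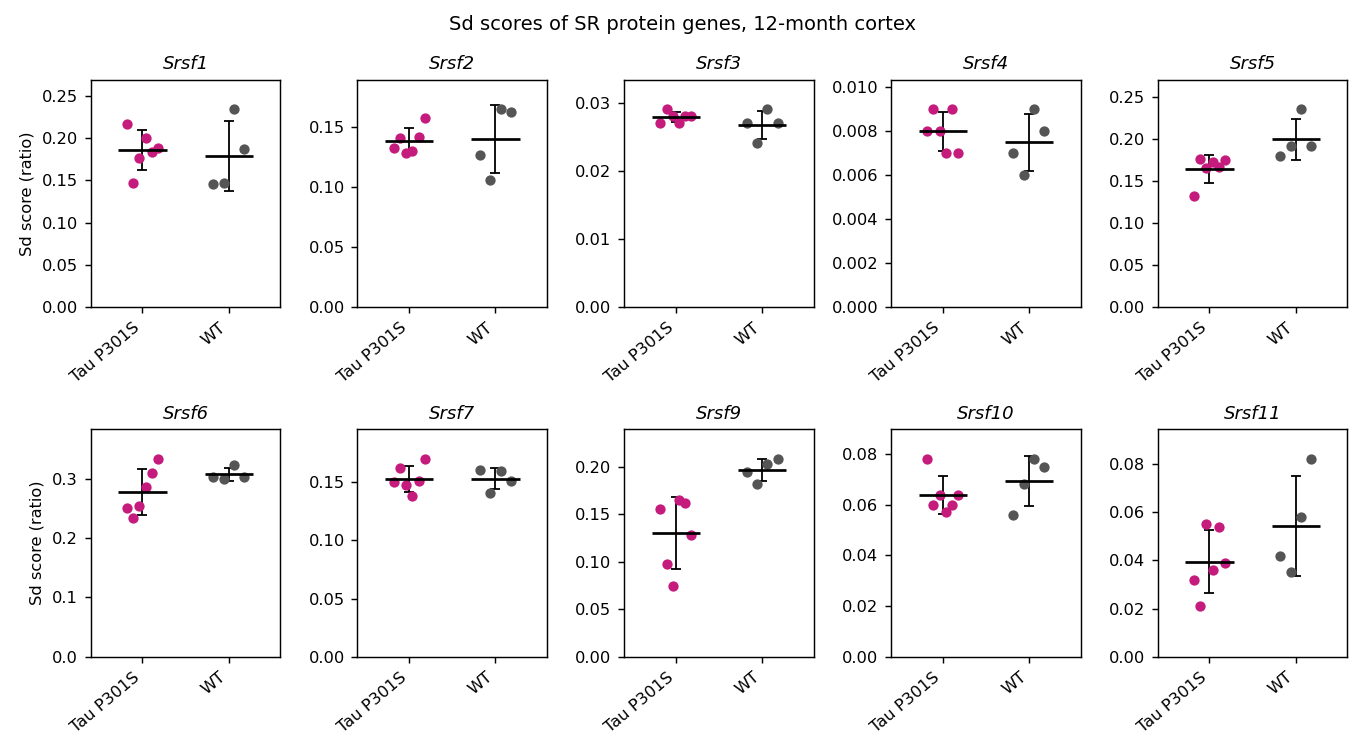
Sd score (ratio, vertical axis from 0) of each SR protein gene in the 10 cortex libraries at 12 months; points are libraries, the bar is the group mean and the whisker is 1 SD (6 Tau P301S and 4 WT). In Srsf9 and Srsf5 every Tau P301S point lies below every WT point, and in the other 8 genes the groups overlap.

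Srsf3 and Srsf7 were each scored a further time at 12 months under the older symbols Sfrs3 and Sfrs7, which RefSeq lists as synonyms. Sfrs3 scored 0.039 ± 0.00127 in Tau P301S and 0.037 ± 0.0044 in WT mice, and Sfrs7 0.0662 ± 0.00417 in Tau P301S and 0.0638 ± 0.0033 in WT mice (SD, n = 6 and 4). In the same WT libraries the row Srsf3 had 0.0268 ± 0.00206 and the row Srsf7 had 0.153 ± 0.00932. The paired rows thus differed in level, and which gene model each stands for is not given in the sources used here. Neither older symbol passed the test between the groups (adjusted p = 0.809 for Sfrs3 and 0.873 for Sfrs7). Rows of this kind were 3.15% of the symbols at 12 months and 0.178% at 6 months.

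The order of the SR protein genes was not the same in the WT mice of both ages. At 12 months Srsf6 was again highest with 0.307 ± 0.0106 (SD, n = 4, percentile 95.7), followed by Srsf5 with 0.2 ± 0.0243 (percentile 92.9) and Srsf9 with 0.197 ± 0.0114, which did not differ beyond their spread. Srsf4 was lowest with 0.0075 ± 0.00129 (percentile 31.4). Srsf5, the lowest member at 6 months, was thus among the highest at 12 months. Among 12952 symbols scored at both ages its percentile was 73.2 points higher at 12 months, a gap reached in either direction by 0.293% of them, where the median gap was 8.03 points. Srsf11 stood 26.6 points higher at 12 months and Srsf4 28 points lower, gaps reached by 10.8% and 9.84% of genes. The ages were processed as separate tables with different gene lists and different median scores, so age and table cannot be told apart and the scores were not tested between them.

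**Figure D5:**
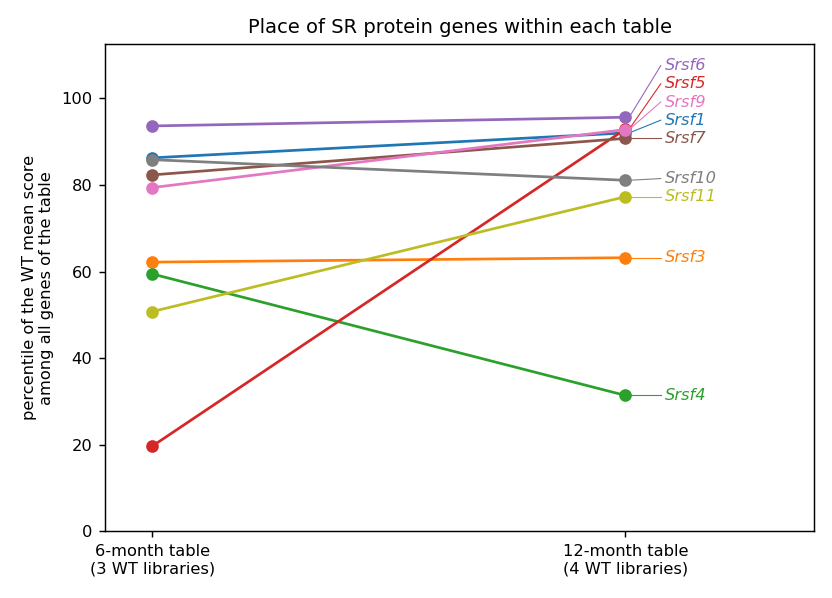
Percentile of the mean WT score (vertical axis) of 9 SR protein genes among all genes of the 6-month and of the 12-month table; lines join the values of 1 gene and are no time course. Srsf5 stands at 19.7 among the 6-month and at 92.9 among the 12-month scores. Srsf6, Srsf1, Srsf10 and Srsf3 differ by less than the median gap of 8.03 points, and Srsf7 by 8.44. The 12-month rows under the older symbols Sfrs3 (70.3) and Sfrs7 (79.8) are not drawn.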

How the data were processed

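The authors deposited, for each age, a table of Sd scores, a ratio per gene and library with 3 decimals. Per the labels' protocols, RNA was extracted with DNase digestion and made into TruSeq stranded poly(A) libraries read as 100 bp pairs. CASAVA, STAR, BWA, bedtools 2.16.1 and build mm9 were used, per the submitters' processing notes. The formula of the score and the annotation are not given in the sources used here. Groups came from sample titles, and 0 columns were left unused.

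The 5th percentile of the values above 0, which was 0.002, was added to each score before taking log2, which draws folds of low scores towards 1. All libraries of a table entered 1 limma fit (version 3.58.1, R 4.3.3; lmFit, contrasts.fit, eBayes) with 1 term per group and no recentring, leaving 8 residual degrees of freedom. Tests were two-sided, with Benjamini-Hochberg adjustment over all genes and a threshold of 0.05. The procedure was run on simulated data with independent noise and with changes far larger than those of the members. That run therefore does not show how well changes of the size reported here are found. Averaged contrasts are the mean of both backgrounds.

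The members and gene lists were chosen with earlier results of these data known. All members are named in each comparison, by value or within a range; of each list, up to 4 genes past the threshold by adjusted p, except a decay factor that is not reported here; and by likeness, the 3 genes of highest r for the members described. Annotation is GENCODE M21 on another build, so no coordinates are given. Alternatives were a pseudocount of 0.01, median centring, eBayes with a trend, a mean score of at least 0.02, each library left out, both libraries of highest median left out, and a replicate block.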

Additional observations from a re-analysis of the deposited data

Results flagged for a closer look

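Among 20 sets of 1 gene in 1 group at 12 months, 3 held a library far from the others of its group by Dixon's 95% criterion, where chance gives about 1 in 20. Srsf5 was 0.132 in Tau P301S replicate 1, below the other 5 Tau P301S libraries (0.165 to 0.176). Srsf10 was 0.078 in the same Tau P301S library, above the other 5 (0.057 to 0.064). Srsf6 was 0.323 in 12-month WT replicate 3, above the other 3 WT libraries (0.3 to 0.303). In Srsf5 the Tau P301S values end at 0.176 and the WT values begin at 0.18. Leaving out Tau P301S replicate 1, the lowest of its group, could not make them overlap and so tests nothing about this separation. None of these genes passed the test between Tau P301S and WT mice with or without any 1 library.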

How the results depend on the processing

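In the comparison of N40K carriers with non-carriers, the count of 2 members past the threshold was 1 with centred libraries, 1 with the replicate block, 1 without both libraries of highest median, and 1 to 4 with 1 library left out. It was 0 to 1 with 1 library left out for N40K minus WT and for dTg minus WT, against 0 with all libraries. Srsf11 passed under each alternative for the carriers, and Srsf1 missed under centring, the block (adjusted p = 0.062) and without both libraries. Centring moved the split of all genes called in that comparison to 713 higher and 528 lower, against 1691 and 147. The calls were 811 and 78 with the block, 752 and 80 at a mean score of at least 0.02, and 691 and 58 without both libraries.

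Signs turned under centring for Srsf3 (−0.0209), Srsf5 (−0.0161), Srsf6 (−0.0035) and Srsf7 (−0.100) in carriers, for Srsf3 in N40K minus WT (−0.0326) and dTg minus 5xFAD (−0.0091), and for Srsf7 in Tau P301S (0.018), and without both libraries for Srsf7 (−0.0054). With 1 library left out, changes in Tau P301S ran from −0.0139 to 0.211 in Srsf1, −0.119 to 0.0903 in Srsf2, −0.0408 to 0.0271 in Srsf7 and 0 to 0.153 in Srsf4, and Srsf2 had −0.0504 with the block. The cause was not tested. No pairing by replicate number was seen. Deviations of same-numbered libraries correlated from −0.2 to 0.0708 over 18 pairs at 6 months and from −0.265 to 0.191 over 4 pairs at 12 months. For differently numbered libraries this was −0.139 to 0.163 over 36 pairs and −0.236 to 0.316 over 20 pairs. Shared litters or batches were not tested. Srsf5 at 6 months and Srsf4 at 12 months have no value at a mean score of at least 0.02. The read depth behind the scores is unknown.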
